A study of Mus musculus with 4 samples.

Results

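The Hox genes of paralog groups 6, 7 and 8 are Hoxa6, Hoxb6, Hoxc6, Hoxa7, Hoxb7, Hoxb8, Hoxc8 and Hoxd8, 8 genes in all. Their open chromatin was followed in cervical spinal motor neurons with and without Hoxa5. Peak intervals of 4 ATAC-seq libraries were merged wherever they overlapped by at least 1 bp. Each merged region went to the protein-coding gene body that held its midpoint, or to the nearest body within 100 kb. This gave the 8 genes 21 regions of 199576 in the genome.

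ATAC-seq uses the transposase Tn5 to cut and tag accessible DNA. The cells were GFP-positive motor neurons sorted from a mouse line with a Choline Acetyltransferase (ChAT)::GFP transgene, which reports cholinergic identity, at embryonic day 12.5. The 2 control and 2 Hoxa5-deficient libraries (called mutants here) came from littermates, and both genotypes carry the reporter. The labels state neither the Hoxa5 allele nor how many embryos went into a library, so the spread between 2 libraries may be partly technical. The lists held 163016 to 206114 summits per library, more in both mutants than in both controls; their read depth is unknown.

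Hox genes encode homeodomain transcription factors that bind DNA with Pbx and Meis partners and give cells their position along the body axis. The genes lie in clusters, and their order in a cluster follows the order of their expression from head to tail. In the spinal cord, Hox5 genes act at rostral cervical levels, where phrenic motor neurons form. Group 6 to 8 genes act mainly further caudally, including at forelimb levels. Hoxc6 and Hoxc8 are known there for the identities of forelimb motor neurons.

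RefSeq promoter sequence was held for 4 of the 8 genes (build GRCm38.p6, the coordinates of mm10). It is shown for the 250 bases before the start site, 5′ to 3′ on the gene's own strand, because start sites of the members differed in whether a peak covered them. The stretches are chr2:74704365-74704614 (plus strand) for Hoxd8, chr11:96281655-96281904 (plus strand) for Hoxb8, chr6:52218574-52218823 (minus strand) for Hoxa7 and chr6:52208673-52208922 (minus strand) for Hoxa6. Capitals mark matches, on either strand, to 3 of the 4 strings searched.
Hoxd8: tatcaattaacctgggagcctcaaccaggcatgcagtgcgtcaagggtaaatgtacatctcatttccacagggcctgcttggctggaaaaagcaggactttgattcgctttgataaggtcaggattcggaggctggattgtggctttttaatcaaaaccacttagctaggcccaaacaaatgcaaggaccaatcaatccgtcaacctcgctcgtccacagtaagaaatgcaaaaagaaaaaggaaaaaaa
Hoxb8: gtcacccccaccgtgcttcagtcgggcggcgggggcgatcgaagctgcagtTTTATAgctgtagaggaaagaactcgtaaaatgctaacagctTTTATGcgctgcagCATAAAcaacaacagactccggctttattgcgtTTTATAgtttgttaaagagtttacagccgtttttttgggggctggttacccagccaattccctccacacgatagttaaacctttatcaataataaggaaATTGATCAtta
Hoxa7: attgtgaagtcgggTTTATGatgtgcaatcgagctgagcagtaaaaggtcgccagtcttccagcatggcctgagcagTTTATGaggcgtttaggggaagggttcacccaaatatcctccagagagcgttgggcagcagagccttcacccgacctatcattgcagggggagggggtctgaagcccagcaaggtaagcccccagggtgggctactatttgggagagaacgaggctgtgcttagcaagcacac
Hoxa6: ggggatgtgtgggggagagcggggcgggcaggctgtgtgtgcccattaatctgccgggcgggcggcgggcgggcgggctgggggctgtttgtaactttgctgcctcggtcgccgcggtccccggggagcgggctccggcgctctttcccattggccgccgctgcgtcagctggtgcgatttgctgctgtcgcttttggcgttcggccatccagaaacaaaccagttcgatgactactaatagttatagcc

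The strings were TGATNNAT (the form of a Hox-Pbx pair site), TAATTA (a Hox core), TTTATG (a site of the type bound by Cdx factors, which act upstream of Hox genes) and TATAAA (the basal promoter box). They occur in the same stretch of 7.68%, 4.84%, 10.8% and 12.4% of 32851 RefSeq promoters. Hoxa7 held TTTATG 2 times, starting 236 and 173 bases before the start site. Hoxb8 held TTTATG 2 times, at 157 and 143 bases, TATAAA 2 times, at 199 and 110 bases, and TGATNNAT once, at 11 bases. Hoxd8 and Hoxa6 held no match, which says only that these letters were not in this window. The stretches also differed in base composition: Hoxa6 had 24 CpG pairs and 65.2% G and C, and Hoxd8 had 6 and 44.4%.

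The start sites of Hoxd8 and Hoxa6 lay inside regions that had a peak in all 4 libraries, although at Hoxa6 the interval of control 2 stopped short of the start base. The start site of Hoxb8 in the promoter entry, 96281905, was covered in none of the libraries, and the nearest region began 136 bp downstream. The Hoxb8 gene body used for assignment begins upstream of this site, at 96279401, which lay in no region either. The start site of Hoxa7 was covered in none of the libraries, and its nearest region lay 653 bp away, inside the gene. The other 4 members had no promoter entry. HoxB and HoxC genes lie on the plus strand in that table, and the lower-coordinate ends of Hoxb7, Hoxc6 and Hoxc8 lay in intervals of all 4 libraries, while that of Hoxb6 did not.

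Most regions of the group were open in every library. A peak was called in all 4 libraries at 15 of 21 regions (71.4%). In Hox groups 1 to 5 the share was 54.5% of 123 regions, and in groups 9 to 13 it was 38.7% of 62. It was 34.7% of the 165822 regions within 100 kb of any gene. One more region, in Hoxb8, was called in 3 libraries (9.66% of those regions), 3 were called in 1 control and 1 mutant library (4.48%), and 2 in 1 library (38.5%). No region was called in both controls and neither mutant (3.50% of those regions), and none in both mutants and neither control (9.16%). The group had 17 and 19 regions in controls and 19 and 16 in mutants. The mutant mean was 0.5 regions lower, well within the spread of libraries (two-sided exact permutation test, p = 1.0; with 4 libraries it cannot go below 0.33).

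The 15 shared regions were strong. Strength is given as a percentile, the rank of the authors' −log10 p among the intervals of the same library's list. The mean percentile over the libraries had a median of 83.2 for these 15 regions and of 69.6 for all 65789 regions called in every library. Their width had a median of 554 bp, against 765 bp.

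**Figure D1:**
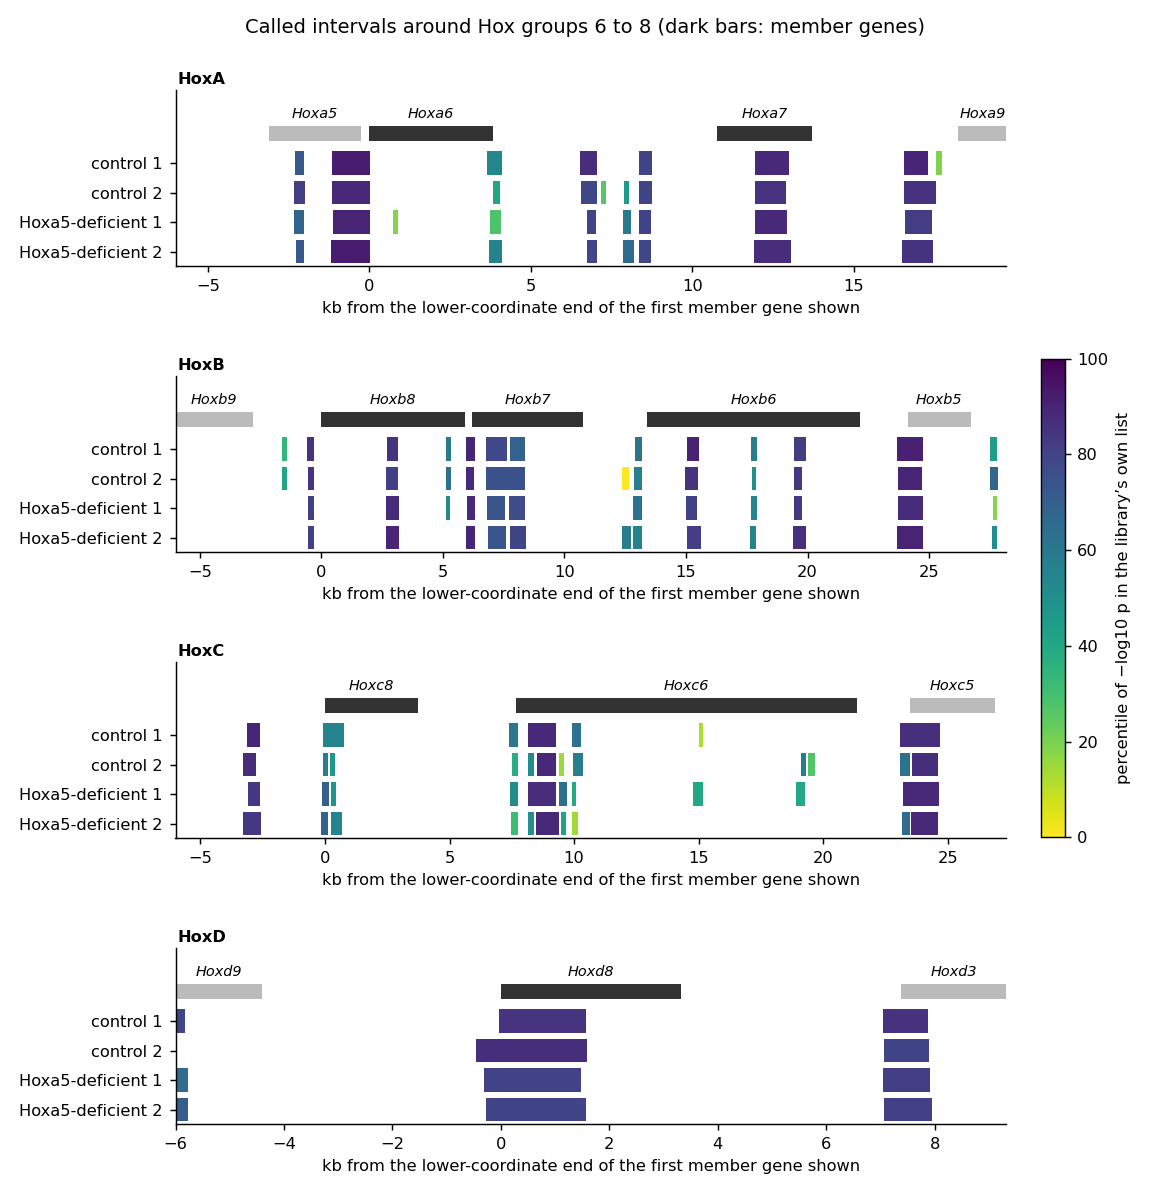
Called intervals of each library around the 8 genes, in kb from the lower-coordinate end of the first member gene of each cluster; dark bars are member genes, grey bars their neighbours, and colour gives the percentile of −log10 p within the library's own list. The main intervals of Hoxa7, Hoxb7, Hoxc6 and Hoxd8 stand in all 4 rows, and member intervals found in 1 or 2 libraries lie in Hoxa6, just below Hoxb6 and in Hoxc6; others in the windows belong to other genes.

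The strongest region of each gene gave the order Hoxb7, Hoxc6, Hoxa7, Hoxc8, Hoxb8, Hoxb6, Hoxd8 and, far below, Hoxa6. The mean percentile over 4 libraries was 88.9 ± 0.560 (SD, n = 4) for Hoxb7 and 83.0 ± 3.56 for Hoxd8. Neighbours among these 7 genes overlapped in their ranges over the libraries, so their order is not resolved. Hoxa6 had 18.5, in 1 library. Its low place depends on the assignment rule, because stronger regions that touch Hoxa6 in all 4 libraries count towards Hoxa3 and Hoxa5 (given below). Of the 29 other Hox genes with a region in every library, those with a strongest region closest to the median of the group were Hoxc5, Hoxa9 and Hoxa13, which differed from it by a mean of 1.79, 1.96 and 2.23 percentile points over the 4 libraries.

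Between genotypes the 15 regions divided into 8 whose percentiles overlapped and 7 (46.7%) whose percentiles did not. Non-overlap was common in the genome at 61.4% of regions, so the count of 7 marks nothing out. In direction, both controls ranked above both mutants at 5 regions (33.3%, against 22.7% of all regions), and both mutants above both controls at 2 (13.3%, against 38.7%); the difference in these shares was not tested. Leaving out 1 library at a time gave 6 to 10 regions with controls above, most without control 2 (32.3% of all regions), and 3 to 7 with mutants above, most without control 1 (51.4%). The median difference, mutant minus control, was 0.0403 percentile points in the group and 0.992 over all regions. Ranked over the 65789 shared regions alone, so that the lists had 1 length, the 2 medians were −4.10 and −0.529, controls were above at 7 regions (32.8% of all regions) and mutants at 2 (29.1%), and 61.9% of all regions did not overlap. With the authors' fold over background ranked in place of −log10 p, the counts were equal. Controls were above at 5 regions (24.4% of all regions) and mutants at 5 (34.0%).

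**Figure D2:**
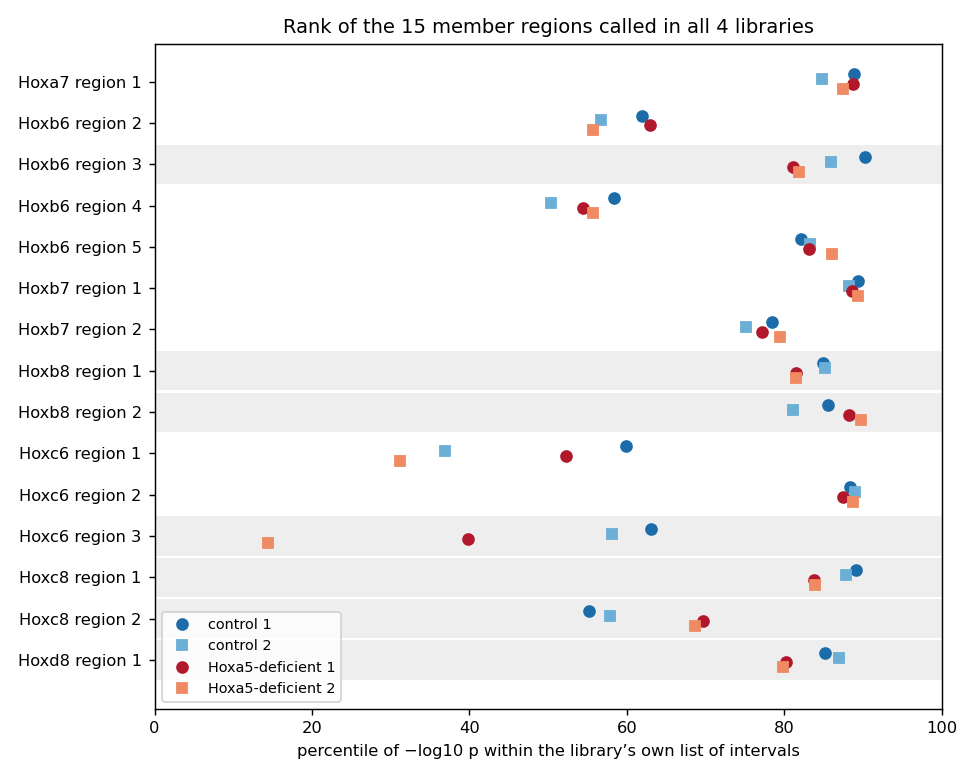
Percentile of −log10 p within each library's own list for the 15 regions called in all 4 libraries; circles are replicate 1 and squares replicate 2, blue for controls and red for mutants, and shaded rows are the 7 regions whose genotypes do not overlap. Controls lie to the right in 5 shaded rows, and mutants lie to the right at region 2 of Hoxb8 and region 2 of Hoxc8.

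Markers of the sorted and of other cells varied too. All 8 motor neuron markers had a peak within 1 kb in every library, and for Chat, Isl2 and Slc18a3 the strongest one ranked higher in both mutants (list means 76.9 and 74.1 in controls, 76.0 and 80.6 in mutants). Of 6 spinal interneuron markers, Pax2, Lhx5, Gad1 and Slc32a1 ranked higher in both controls and Slc17a6 in both mutants. Their mean strongest percentile stood at 88.2 and 89.7 in controls, against 83.2 and 82.2. All 5 glial markers ranked higher in mutants (68.0 and 65.8 against 73.7 and 74.8). Progenitor markers were mixed, with Olig2, Hes1 and Vim higher in mutants and Sox2 and Hes5 in controls (84.1 and 86.8 against 85.4 and 86.5). Of 3 endothelial markers, Pecam1 ranked higher in controls and Kdr overlapped. Cdh5 had peaks near the bottom of the control lists (percentiles 5.8 and 5.54) and none in the mutants. Of 3 sensory and crest markers, Pou4f1 ranked higher in mutants, and of 3 blood markers, Gata1 had no peak in any library. The part of these cell types in the Hox differences was not tested.

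Because a peak's p-value also depends on the background around it, the number of tags at each strongest summit was recovered from the deposited fold and p-value and divided by the library's genome-wide background. This background came to 5.43 tags in control 1, 4.39 in control 2, 5.14 in mutant 1 and 6.06 in mutant 2. The ratio of mutant to control tags carries a 95% exact interval for counting error only. Over all shared regions the median of this ratio was 1.14, so a value of 1 is already low for these libraries. By this measure 7 regions had controls above mutants (20.1% of all regions) and 3 had mutants above controls (42.3%), and the genotypes did not overlap at 62.4% of all regions.

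**Figure D3:**
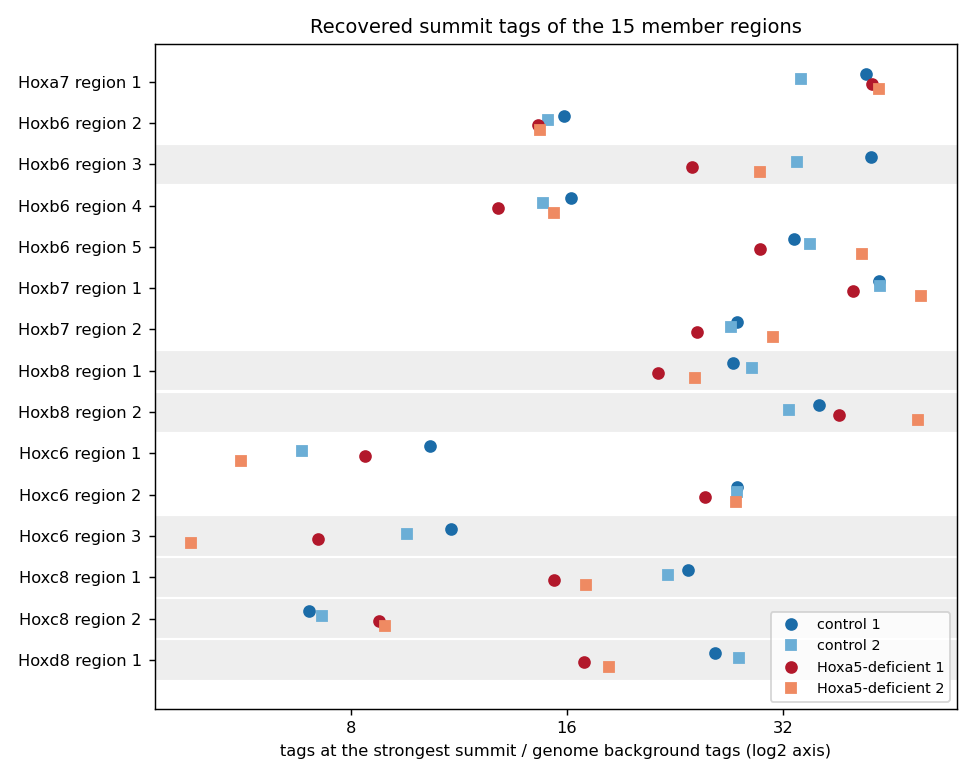
Tags at the strongest summit divided by the genome-wide background of the library, on a log2 axis, for the same 15 regions, symbols and shading. Controls lie to the right of mutants at region 1 of Hoxc8 and at Hoxd8, and values of Hoxc6 region 3 run from 4.79 to 11.05.

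Hoxc8, the group 8 gene of caudal brachial motor neurons, had 2 regions that differed in opposite directions. The region over its lower-coordinate end, chr15:102990393-102991299 (mm10), ranked at 55.1 and 57.8 in controls and at 69.7 and 68.6 in mutants. Both mutants stood above both controls, by a mean of 12.6 percentile points. Without control 1 the merged region split, and the recomputed mean difference of 4.21 points belongs to its higher-coordinate part. There control 2 ranked at 47.1 and mutants at 48.1 and 54.4. In the lower-coordinate part control 2 kept its 57.8, against 69.7 and 68.6 in mutants. By the authors' fold over background, controls stood at 3.35 and 3.81 and mutants at 5.60 and 5.78. The summits held few tags, however, at 38 and 32 against 45 and 54. The ratio of scaled tags was 1.24 (95% interval 0.904 to 1.71), which holds both 1 and the median of all regions. The local background moved the other way, from 1.96 and 1.75 times the genome background in controls to 1.40 and 1.41 in mutants. The strongest summit lay at 102990910 in control 1 and between 102990526 and 102990560 in the others. The rank, fold, tags and local background of control 1 thus come from a different site than those of the other libraries.

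The second Hoxc8 region had its midpoint 2929 bp below the gene, between Hoxc8 and Hoxc9, at chr15:102987235-102987985. It ranked at 89.1 and 87.8 in controls and at 83.8 and 83.9 in mutants. Its summits held 128 and 97 control tags against 79 and 103 mutant tags. Scaled to the background these were 23.6 and 22.1 against 15.4 and 17.0, a ratio of 0.709 (95% interval 0.580 to 0.866). Controls were higher by rank, fold and scaled tags, though not by unscaled tags, and the fold of 9.55 to 11.5 at this region overlapped, among the other 14, only with that of the main Hoxc6 region.

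Hoxb8, a group 8 gene of axial patterning, showed the same arrangement. Its region inside the gene, chr11:96282041-96282594, ranked at 85.5 and 81.1 in controls and at 88.3 and 89.7 in mutants, so mutants stood higher, by a mean of 5.67 points (3.48 without control 2). Summit tags were 195 and 143 against 197 and 299, and the ratio of scaled tags was 1.29 (95% interval 1.12 to 1.48). This was the single region of the 15 whose interval lay above 1, and its interval still held the genome median of 1.14. It begins just downstream of the start site whose promoter is printed above, with the TTTATG and TATAAA matches.

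The region on the other side of Hoxb8, chr11:96278830-96279097, had its midpoint 437 bp below the gene body, towards Hoxb9. It ranked at 84.9 and 85.1 in controls and at 81.5 and 81.4 in mutants, a small gap with tight replicates. Its tags were 148 and 127 against 110 and 146, with a scaled ratio of 0.816 (95% interval 0.686 to 0.971). The other Hoxb8 region, chr11:96284515-96284724, was called at percentiles from 52.4 to 62.7 in both controls and mutant 1, and was not called in mutant 2.

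Hoxd8 is the only member in the HoxD cluster, which has no group 6 or 7 gene. Its 1 region, chr2:74704164-74706200, covers, as merged, the promoter printed above and was the widest of the group at 2037 bp, with 3 to 6 summits per library. It ranked at 85.1 and 87.0 in controls and at 80.3 and 79.8 in mutants. Its strongest summit lay within 19 bp in the 4 libraries and held 140 and 122 control tags against 87 and 111 mutant tags. Controls were higher, with a scaled ratio of 0.663 (95% interval 0.548 to 0.8). The local background also differed, at 4.16 and 3.72 times the genome background against 2.65 and 2.76, and the fold overlapped, at 5.97 and 7.11 against 6.03 and 6.31.

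Hoxc6, the group 6 gene of forelimb motor neurons, had 6 regions, the most of the group. The main one, chr15:102998687-103000254, ranked at 88.3 and 88.9 in controls and at 87.5 and 88.7 in mutants and did not separate the genotypes by own-list rank. Its scaled tags were 27.62 and 27.59 in controls, against 24.91 and 27.57, so controls stood above by a margin that was small for mutant 2. Over the shared regions alone controls ranked above too, the mean difference being −4.10 points. The next region, chr15:103000441-103000882, had the widest gap of its gene. It ranked at 63.0 and 58.1 in controls and at 39.8 and 14.4 in mutants, a mean difference of −33.5 percentile points. It was −20.8 without mutant 2 and −46.2 without mutant 1. Tags were 60 and 42 against 37 and 29, a scaled ratio of 0.567 (95% interval 0.410 to 0.781). Mutant 2, the library with the highest genome-wide tag background, had the lowest value. With peaks limited to −log10 q of 5 or more, this region was called in both controls and in neither mutant.

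A weaker Hoxc6 region over the gene's lower-coordinate end, chr15:102997925-102998283, ranked at 59.9 and 36.9 in controls and at 52.3 and 31.1 in mutants. Replicates of 1 genotype differed more than the genotypes did. The other 3 Hoxc6 regions, further inside the gene, were called in 1 or 2 libraries with percentiles from 12.5 to 58.2 and scaled tags from 4.60 to 12.5. The 2 of them found in 2 libraries each paired mutant 1 with a control.

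Hoxb6 had 5 regions, and 1 separated the genotypes. This was chr11:96294372-96295034, inside the gene, which ranked at 90.2 and 85.9 in controls and at 81.1 and 81.8 in mutants. Tags were 231 and 147 against 123 and 180, a scaled ratio of 0.703 (95% interval 0.602 to 0.820). The summit stood within 35 bp in all libraries. Its neighbour chr11:96298801-96299335 ranked at 82.1 and 83.2 against 83.1 and 86.1 and had a scaled ratio of 1.06 (95% interval 0.916 to 1.23), with no separation of the genotypes. Regions 2 and 4 ranked from 50.4 to 63.0 with overlapping genotypes, and by scaled tags controls stood above at region 2 (15.8 and 15.05 against 14.6 and 14.7). Region 1 was called in control 2, at percentile 0.197, and in mutant 2, at 58.0.

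Hoxa7 and Hoxb7, the group 7 genes, had no merged region that separated the genotypes by rank in each library's own list. Hoxa7 had 1 region, chr6:52216777-52217920, with 3 summits in every library and ranks of 88.9 and 84.8 in controls and 88.7 and 87.4 in mutants. Its strongest summit held 227 and 149 control tags against 219 and 264 mutant tags. By scaled tags mutants were above, with a ratio of 1.13 (95% interval 0.982 to 1.29), close to the genome median. Hoxb7 had its main region at chr11:96285338-96285713, over the gene's lower-coordinate end, with ranks of 89.3 and 88.2 against 88.6 and 89.3. Its scaled ratio was 1.04 (95% interval 0.911 to 1.18), and ranked over the shared regions alone both controls stood above both mutants, by a mean of 2.73 points. The other, inside the gene at chr11:96286168-96287809, ranked from 75.1 to 79.5. A long interval of control 2 joined what were separate left and right intervals in control 1 and both mutants. The left interval ranked at 78.4 in control 1 and at 73.8 and 73.9 in mutants, the right one at 68.4 against 77.2 and 79.5. The strongest summit of the merged region lay near 96286575 in both controls and near 96287540 in both mutants, among 4 or 5 summits per library. Its percentiles thus compare different sites between genotypes.

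Hoxa6, the closest member to Hoxa5 itself, had 1 region by the assignment rule, chr6:52205589-52205740. It was 152 bp wide and was called in mutant 1 alone, at percentile 18.5 and 57 tags. The region over its start site, chr6:52208514-52208976, was called in all 4 libraries but counts towards Hoxa3, because its midpoint lies outside Hoxa6 and a RefSeq body of Hoxa3 spans it. It ranked at 53.7 and 40.7 in controls and at 28.0 and 55.5 in mutants, with no separation. A further region reached 34 bp into the other end of Hoxa6. It counts towards Hoxa5 and ranked from 88.5 to 92.3, also with overlapping genotypes.

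Tag density around the peaks was higher at Hoxa7, the 1 shared region in HoxA, and at the 8 in HoxB than at the 5 in HoxC. The local background that entered the authors' p-value was a median of 6.06, 5.92, 4.92 and 5.94 times the genome background at the 15 regions (control 1, control 2, mutant 1, mutant 2), against 1.14 to 1.22 for all shared regions. In HoxB the medians were 7.34 and 7.53 for controls, 5.86 and 7.22 for mutants, and at Hoxa7 the values ran from 7.11 to 8.29. In HoxC the medians were 3.19 and 2.67 against 2.78 and 2.33. Hoxd8, the 1 region in HoxD, had 4.16 and 3.72 against 2.65 and 2.76. The group's summit folds, with medians of 4.05 to 5.19, stood below the 5.87 to 7.23 of all shared regions although their ranks stood above.

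**Figure D4:**
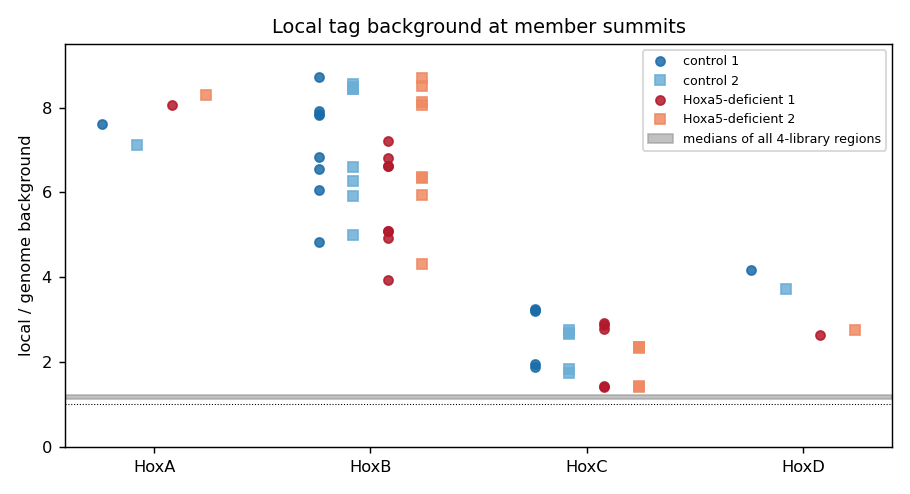
Local background at the strongest summit of each of the 15 regions, divided by the genome-wide background of the library, by Hox cluster; the grey band spans the medians of all regions called in 4 libraries and the dotted line marks 1. HoxA and HoxB summits lie from 3.93 to 8.71 and HoxC summits from 1.40 to 3.26.

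Of the 7 separated regions, 5 had a scaled tag ratio whose interval lay below 1 and 1 lay above, and region 2 of Hoxc8 held 1. Against the genome median of 1.14, 7 of the 15 intervals lay below and 0 above. The same counts over all shared regions were not made, and the intervals leave out the spread between libraries. The tags were also recovered from the p-values that had ranked the regions. These counts are thus a description only. In bulk chromatin, fewer cells with an open site and less opening per cell cannot be told apart.

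Hox genes on either side were read by the same measure. Groups 1 to 5 had controls above mutants at 21 of 67 shared regions (31.3%) and mutants above controls at 17 (25.4%). Groups 9 to 13, which pattern thoracic and more caudal levels, had 14 of 24 (58.3%) and 2 (8.33%). All Hox lists thus held more regions with controls above than the genome's 22.7%; no test of the lists was made. Of the 185 regions of the other Hox genes, 11 (5.95%) were control-only and 7 (3.78%) mutant-only. These shares were 3.50% and 9.16% of all regions within 100 kb of a gene. Hoxc4 had 4 in controls and 3 in mutants of 29 regions, and Hoxb9 had 2 and 0 of 12. Hoxa10 had 1 and 0 of 4, and Hoxb3 had 1 and 2 of 18.

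The 9 cofactor genes of the Pbx, Meis and Pknox families, which share DNA binding with Hox proteins, had mutants above controls at 68 of 161 shared regions (42.2%) and controls above at 39 (24.2%), near the genome. Of their 429 regions 14 (3.26%) were control-only and 47 (11%) mutant-only, near the 3.50% and 9.16% of all regions within 100 kb of a gene. Pbx3 had 7 and 12 such regions of 79, Meis1 had 1 and 8 of 71, and Pknox2 had 0 and 10 of 74. Genes of the limb motor column, in which brachial Hox factors act, had 59 (41.8%) and 37 (26.2%) of 141. Control-only and mutant-only regions numbered 16 (3.98%) and 43 (10.7%) of 402, again near the background. Among them Foxp1, the accessory factor of limb motor neurons, had 5 and 10 of 114, and Epha4, an axon guidance receptor, had 7 and 11 of 78. Gfra1 had 2 and 1 of 50, and Aldh1a2, a retinoic acid synthesis enzyme, had 1 and 6 of 23. The Cdx genes had 4 shared regions in all, and Cdx1 had no region.

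**Figure D5:**
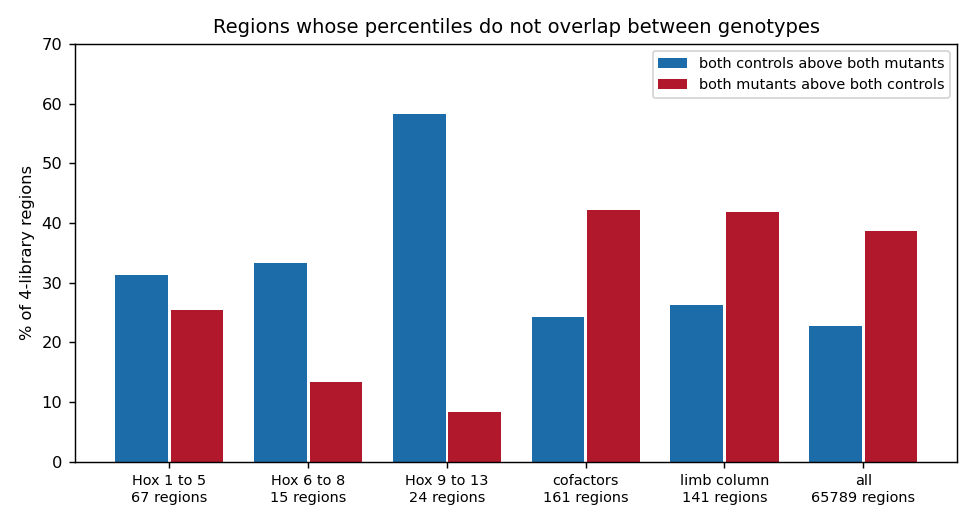
Share of regions called in all 4 libraries at which both controls ranked above both mutants (blue) or the reverse (red), for Hox genes by paralog group, Hox cofactors, limb motor column genes and all regions. Hox groups 6 to 8 stand at 33.3% and 13.3%, and all regions at 22.7% and 38.7%.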

How the data were processed

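The 4 libraries were grouped by genotype from their labels. The submitters' processing notes name MACS2 2.2.4 besides Bowtie2 2.3.4.3, SAMtools 1.9 and FastQC 0.11.9, with build mm10. Parameters and any Tn5 shift are not given in the sources used here. What the authors deposited is a separate list for each library (113505 to 138248 intervals): interval positions, a score (10 times −log10 p, capped), a fold ratio over local background, and −log10 of the p-value and q-value. These values are the authors' and were used to rank peaks within a list.

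Intervals were merged and assigned with Python 3.11.15 (pandas 2.3.3, scipy 1.17.1) against 21887 protein-coding bodies of RefSeq GRCm38.p6. Whole summit tag counts were recovered for 100% of summits (p-value matched within 0.001); the lowest background is the genome-wide one. Scripts were tested on simulated data. Tag intervals are exact binomial (Clopper-Pearson). All 8 members are named, besides the 3 Hox genes of most similar percentiles and up to 3 genes per list and direction with most genotype-only regions; some genes that this rule or the marker lists name are not reported here. Members and lists were chosen with earlier results of these data known. Scaled tags and touching regions were alternatives chosen after seeing the data.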

Additional observations from a re-analysis of the deposited data

How the results depend on the processing

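Each of the 7 regions whose genotypes did not overlap kept the sign of its difference in all 75 recomputed values. These values left out a library or changed the merging, the assignment, the peaks kept or the column ranked. Much of this was fixed in advance. Regions picked because their genotypes did not overlap can hardly change sign when a library is left out, and the assignment does not enter the percentiles. The size moved by more than the replicate spread in 22 of the 75 values. Examples were Hoxc8 region 2, from 12.6 to 25.2 (−log10 q of 5 or more), and Hoxb6 region 3, from −6.64 to −15.8 (ranked over the shared regions). The count of 22 also holds the 4.21 of Hoxc8 region 2 without control 1. That region had then split, and the value is from a part without the summits ranked in control 2 and the mutants. Regions with controls above mutants numbered 8 of 14 with equal list length (34.2% of all regions). They numbered 3 of 14 among the regions that touch a member's body (22.7%), against 5 of 15 in the main count (22.7%). Regions with mutants above controls numbered 2 of 14 among those that touch a body (38.7% of all regions). When fold was ranked they numbered 5 of 15 (34.0% of all regions), against 2 (38.7%) in the main count. Those with controls above also numbered 5 by fold (24.4%), so the lean towards controls was absent by that measure. Leaving out 1 library gave 6 to 10 regions with controls above (29.5% to 35.0% of all regions) and 3 to 7 with mutants above (43.9% to 51.4%). These counts were higher since 1 library against 2 overlaps less often. With −log10 q of 5 or more, 1 region was in controls only and 1 in 1 library of each genotype. Leaving out 1 library gave 0 to 1 regions in controls only and 0 to 1 in mutants only. With equal lists 14 regions remained in every library, Hoxc6 region 3 having dropped out of mutant 2. The mean number of regions, mutant minus control, was 0 with overlap of 50% of the shorter interval and from −2.0 to 1.5 with 1 library left out, against −0.5. Taking same-numbered libraries as pairs (a replicate block) gave −0.5 too, from 2 and −3 (exact sign flips, p = 1.0); the labels do not say that numbers mark pairs. With 2 libraries a group no single region can pass a permutation test, and tag counts of 29 to 60 limit Hoxc6 region 3 and Hoxc8 region 2.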
